A study of Rattus norvegicus with 8 samples.

Results

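RNA of the axonal compartment was compared with RNA of the somatic compartment in cultured rat sensory neurons that carried a short hairpin RNA against Pum2. The neurons came from dorsal root ganglia of rats at embryonic day 15 and were kept for 7 days in microfluidic chambers, devices that let axons reach a separate compartment through fine channels. A lentivirus delivered the hairpin (shPum2) when the cells were plated, and parallel cultures received a control hairpin (shControl) in the same way. The comparison used the 2 axonal and the 2 somatic shPum2 libraries out of 8 libraries in the series. The labels give the somatic RNA as coming from cell bodies together with axons, so the somatic side is a mixture and not cell bodies alone. The kit was standard for somatic RNA and of the ultra-low input kind for axonal RNA, so the effects of kit and compartment cannot be told apart in any value below. The labels do not say whether replicates came from separate cultures, and p-values therefore measure the spread between these libraries, which may be technical. In such bulk samples fewer cells of a type and less RNA per cell cannot be told apart either.

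Axons of sensory neurons hold messenger RNAs that are carried from the cell body in RNA-protein granules and can be translated locally. Transcripts for ribosomal proteins, mitochondrial proteins and cytoskeletal proteins are well known among them. Pum2, a Pumilio RNA-binding protein, binds the untranslated region after the coding sequence of its target mRNAs and is known as a repressor of them.

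Pum2 itself stood at 38.2 and 36.5 CPM (counts scaled to the library total) in the somatic shPum2 libraries and at 1.46 and 7.07 CPM in the axonal ones. Both axonal values lay below both somatic values, but the log2 difference of -1.36 (SE 1.25) did not pass the threshold (adjusted p = 0.517, edgeR quasi-likelihood, Benjamini-Hochberg). Somatic libraries held 21254519 and 25821766 counts and the axonal libraries 11641947 and 16131611. At least 1 CPM was reached by 11748 and 11339 genes in the somatic libraries and by 8742 and 6293 genes in the axonal ones. The axonal replicates were far less alike than the somatic ones. Across the 12077 genes tested, which are not independent replicates, log2(CPM + 1) of replicates correlated at r = 0.974 in the soma and at 0.725 in the axon. A level of at least 50 CPM in axonal replicate 1 with less than 1 CPM in replicate 2 was found for 206 genes, and the reverse for 12. No gene did so between the somatic replicates.

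**Figure D1:**
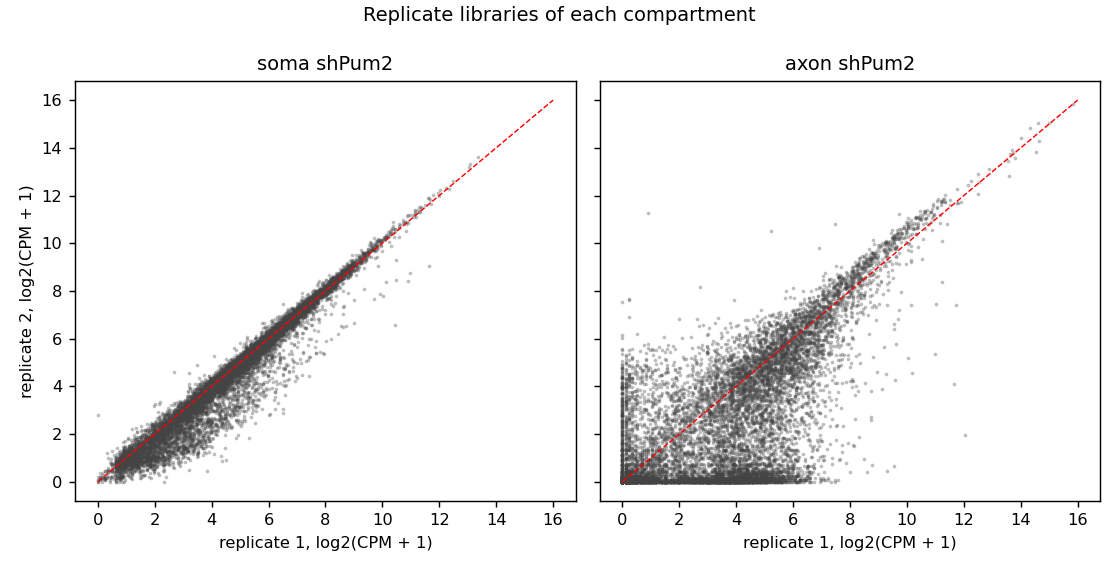
Each point is a tested gene, with log2(CPM + 1) in replicate 1 on the horizontal and in replicate 2 on the vertical axis, for the somatic shPum2 libraries and for the axonal ones. Somatic points lie close to the line of equality (r = 0.974), whereas the axonal panel (r = 0.725) shows many genes at high CPM in replicate 1 and near 0 in replicate 2.

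Marker lists were read before the results. All 15 measured sensory neuron markers had counts in both compartments, and their summed level was 32845 and 37680 CPM in the soma against 33828 and 24295 CPM in the axon. None of the 15 passed the test in either direction. Fibroblast markers summed to 9139 and 2036 CPM in the soma and to 861 and 94.4 CPM in the axon, with none of 11 tested members past the threshold. Markers of macrophages and blood summed to 230 and 52.7 CPM in the soma and to 4672 and 328 CPM in the axon. All 12 tested macrophage and blood markers were positive on the log2 scale (median 4.91) and none passed the threshold, with 2 of 14 at 0 in axonal replicate 1 and 5 of 14 at 0 in replicate 2. Lyz2, the macrophage lysozyme, stood at 23.9 and 5.89 CPM in the soma and at 2060 and 172 CPM in the axon (adjusted p = 0.0545, edgeR quasi-likelihood, Benjamini-Hochberg). Schwann and satellite glia markers summed to 103 and 55.1 CPM in the soma and 148 and 70.2 CPM in the axon. Of 10 tested members, Mbp, a myelin protein, rose and Cdh19, a glial cadherin, was called lower. Endothelial and mural markers summed to 58.5 and 32.2 CPM in the soma and 23.4 and 38.4 CPM in the axon. Kdr and Tek, both endothelial receptors, were called lower among 9 tested members. Cdh19, Kdr and Tek had no count in either axonal library and passed the expression filter through their somatic libraries alone. Their direction was thus fixed by the filter. Over all genes 5.85% rose and 12.2% fell. The part of non-neuronal cells in the results was not tested.

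Of the 12077 genes tested, 2185 (18.1%) differed between axon and soma, 706 higher in the axon (5.85% of those tested) and 1479 lower (12.2%). The median change over all tested genes was -0.60 on the log2 scale after TMM scaling. Its factors, 1.77 and 1.64 for the soma and 0.738 and 0.468 for the axon, make a fitted change more positive than the ratio of the CPM printed beside it. Called genes moved far, with a smallest log2 change of 1.69 in size and a median of 6.32. Among the 1479 lower genes, 902 had no count at all in either axonal library, so their fitted changes depend on the prior count and bound nothing. Over all tested genes, 1173 had no axonal count and 2 had no somatic count. A gene without axonal counts can pass the expression filter only through its somatic libraries, so its direction was fixed by the filter. The excess of lower calls and the median size of 6.32 are partly set by such genes. The 2 axonal libraries lay below the 2 somatic ones in CPM for 69.2% of tested genes and above them for 11.1%, and overlapped for 19.6%.

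The calls stood close to the threshold: their adjusted p ran from 0.0487 to 0.05, and 1684 of them shared the value 0.0487 (edgeR quasi-likelihood, Benjamini-Hochberg). With the replicate number added to the fit, none of them passed. No gene passed without the expression filter or with a 2-fold limit, 3 passed without somatic replicate 2 and 15 without somatic replicate 1, whereas 9630 passed without axonal replicate 1 and 8281 without axonal replicate 2, where the lone axonal library is assumed to vary like the somatic ones. Scaled by total counts alone the median of all genes was -2.00 and the split was 392 higher and 2348 lower, so all changes below are best read relative to the median of all genes.

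**Figure D2:**
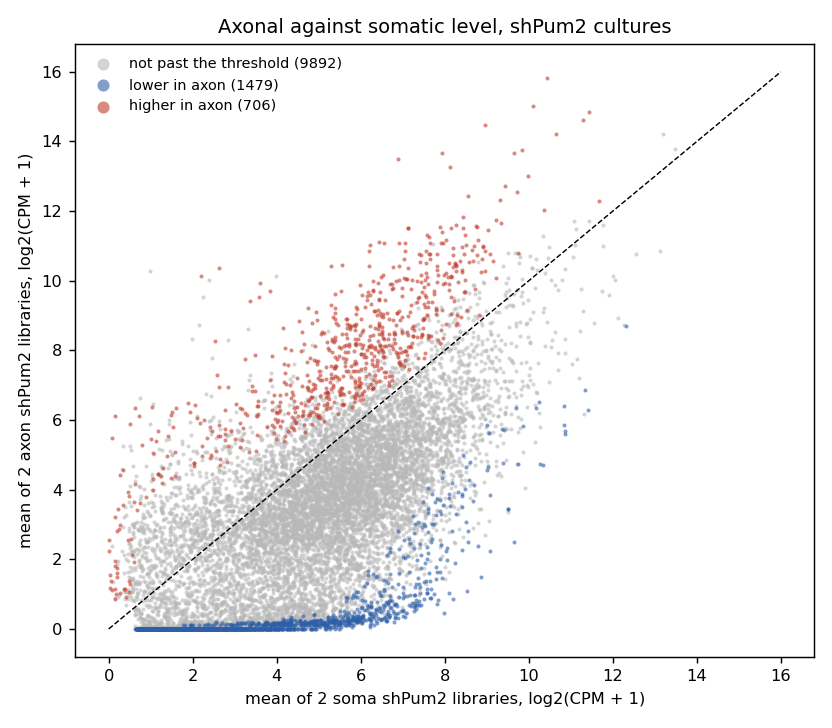
Each point is a tested gene, with the mean log2(CPM + 1) of the 2 somatic shPum2 libraries on the horizontal and of the 2 axonal shPum2 libraries on the vertical axis, and the dashed line marks equality. The 706 genes higher in the axon lie above the line over a wide range of levels, and most of the 1479 lower genes lie at or near 0 on the axonal axis.

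Of 78 tested cytosolic ribosomal protein genes, 46 rose in the axon and none fell, beside the 5.85% of all genes that rose. All 78 had a positive fitted change after TMM scaling, and the median was 3.47 on the log2 scale against -0.60 for all genes. In CPM both axonal libraries lay above both somatic ones for 63 of the 78 genes and below them for 3. Their summed level was 25778 and 25042 CPM in the soma and 90723 and 128166 CPM in the axon. Members of this family have near-identical processed copies in the genome, between which the read assignment is uncertain.

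Ribosomal protein transcripts are known to begin with a pyrimidine-rich stretch, the TOP motif, through which their translation is controlled. The sequence around the annotated start is shown for the 5 named ribosomal proteins and for 2 respiratory chain subunits that moved with them. Each line runs 5′ to 3′ from 15 bases before the RefSeq start to 15 bases from it on (build GRCr8), and capitals mark the word CTTTC, the word CTCTT or the word CTTCC where it stood on the gene's strand.
Rpsa, chr8:128728864-128728893, plus strand: cCTTTCcgcgctaccctggaacgggtccgt
Rps2, chr10:14251833-14251862, plus strand: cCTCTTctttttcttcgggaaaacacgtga
Rplp1, chr8:71290858-71290887, minus strand: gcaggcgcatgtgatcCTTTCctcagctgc
Rpl41, chr7:1563483-1563512, minus strand: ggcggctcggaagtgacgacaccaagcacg
Rplp0, chr12:46718376-46718405, minus strand: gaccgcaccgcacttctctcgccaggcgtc
Ndufa1, chrX:121293541-121293570, minus strand: caccgcccctctcgcgtgctgccggaagag
Ndufs5, chr5:141264388-141264417, minus strand: ggcgtctgcgtcctccttaagccggcggtc
At least 1 of the 3 words stood on the gene's strand in this window for 43 of 63 cytosolic ribosomal protein genes with a RefSeq start (68.3%), for 10 of 35 complex I genes (28.6%) and for 12% of 27457 genes of the table. On the opposite strand the shares were 4.76% for the ribosomal protein genes, 22.9% for complex I genes and 12.9% for all genes, so the complex I share was similar on either strand. The words were chosen after the sequences had been read, and a match is a description of these letters, not a site.

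Rpsa, a protein of the small ribosomal subunit, stood at 609 and 574 CPM in the soma and at 3570 and 3270 CPM in the axon. Its log2 change of 4.09 (SE 0.46) passed the threshold (adjusted p = 0.0487, edgeR quasi-likelihood, Benjamini-Hochberg). Rps2, also of the small subunit, went from 1010 and 815 CPM to 13700 and 13900 CPM. In both genes the axonal replicates lay close together and far above the somatic ones. The acidic stalk protein Rplp1 stood at 459 and 391 CPM in the soma and 2940 and 3090 CPM in the axon, and the stalk base Rplp0 at 865 and 820 against 5960 and 6110 CPM. Rpl41, the shortest ribosomal protein, stood at 707 and 679 CPM in the soma and 5730 and 7730 CPM in the axon. All 5 rose, by log2 changes between 4.09 and 5.49.

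The respiratory chain, which makes ATP in mitochondria, moved with the ribosomal proteins. Of 33 tested nuclear-encoded subunits and assembly factors of complex I, 26 rose and none fell, with a median log2 change of 4.19. In complexes II to V 31 of 40 rose and none fell, with a median of 4.06. Among all genes 5.85% rose and 12.2% fell. Ndufa1, a small membrane subunit of complex I, stood at 47.3 and 44.4 CPM in the soma and at 1210 and 1610 CPM in the axon (log2 change 6.56, SE 0.64). Ndufb9 went from 116 and 122 CPM to 1970 and 2330 CPM, and Ndufs5 from 101 and 104 CPM to 737 and 1190 CPM. In complex III, Uqcrq stood at 138 and 138 CPM in the soma against 2380 and 3470 CPM in the axon. In complex IV, or cytochrome c oxidase, Cox7a2 stood at 94.9 and 89.4 CPM against 1960 and 2360 CPM, and Cox6a1 at 364 and 383 CPM against 4850 and 6160 CPM. All of these rose, and no axonal value of them fell within the somatic range. The level of the complex II to V list was 8389 and 8795 CPM in the soma and 39826 and 54680 CPM in the axon.

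Mitochondrial ribosomal proteins are encoded in the nucleus and build the organelle's own ribosome. Of 67 tested, 21 rose and none fell, beside 5.85% and 12.2% of all genes, with a median log2 change of 2.37. Mrps18c stood at 21.6 and 22.5 CPM in the soma and 355 and 565 CPM in the axon. Mrpl54 went from 42.3 and 41.2 CPM to 414 and 473 CPM, and Mrpl42 from 32.3 and 35.3 CPM to 323 and 399 CPM. These 3 rose by log2 changes between 5.0 and 6.02, and the summed level of the list was 2382 and 2529 CPM in the soma against 5149 and 6745 CPM in the axon.

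Ferritin transcripts, for the protein shell that stores iron, were among the most abundant RNAs of the axonal libraries. The light chain Ftl1 stood at 1540 and 1230 CPM in the soma and at 57800 and 58400 CPM in the axon, a log2 change of 6.97 (SE 0.82). The heavy chain Fth1 stood at 1250 and 937 CPM against 32800 and 33600 CPM, a log2 change of 6.50 (SE 0.75). Both rose (adjusted p = 0.0487, edgeR quasi-likelihood, Benjamini-Hochberg), with little difference between axonal replicates. Macrophage and blood markers summed to 4672 and 328 CPM in the same axonal libraries, and their part in the ferritin level was not tested. Of 24 genes in the list of ferritin and antioxidant enzymes 12 rose, and Gclm, a subunit of the enzyme that starts glutathione synthesis, fell. Among all genes 5.85% rose and 12.2% fell. Gpx4, the glutathione peroxidase that reduces lipid peroxides, stood at 213 and 232 CPM in the soma and 1190 and 1530 CPM in the axon. The peroxiredoxin Prdx2 stood at 476 and 516 CPM against 1160 and 1330 CPM, and thioredoxin, Txn1, at 275 and 311 CPM against 1120 and 1570 CPM. All 3 rose.

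Levels of different genes were compared in TPM, transcript shares that take length into account. Ordered by mean axonal TPM, a list drawn up after the values were seen, the first 4 were Tmsb10 and Tmsb4x, the thymosins that bind actin monomers, and both ferritin chains. Tmsb10 held 51700 and 60500 TPM in the axon against 12800 and 12500 TPM in the soma. Ftl1 held 60000 and 50300 TPM in the axon against 3300 and 2590 TPM in the soma, and the order of these 2 changed between replicates. Tmsb4x followed with 39500 and 43000 TPM and Fth1 with 40100 and 34000 TPM. The 10 most abundant genes by counts took 24.3% and 25.4% of the axonal libraries and 5.92% and 6.57% of the somatic ones. Bc1, a short noncoding RNA of rodent neurons that is known in dendrites and axons, held 11500 and 14500 TPM in the axon against 604 and 938 TPM in the soma, where it ranked only 198. It rose by 7.60 on the log2 scale and was chosen after its values were seen.

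Stau2, a double-stranded RNA-binding protein of neuronal transport granules, stood at 228 and 263 CPM in the soma and at 14100 and 12200 CPM in the axon, a log2 change of 7.29 (SE 0.63). Ybx1, a cold shock domain protein that binds mRNA, stood at 779 and 831 CPM against 12700 and 13500 CPM. These 2 rose, while 4 other genes of 37 RNA-binding protein genes of neurons and granules fell (Stau1, Elavl3, Nova1 and Cpeb1). The list's median was -1.17. Both counts stood near the shares of all genes, 5.85% higher and 12.2% lower. Of the 4 that fell, 1 had no count in either axonal library, so its direction was fixed by the filter. Cpeb1, which binds the cytoplasmic polyadenylation element, stood at 65.9 and 86.7 CPM in the soma and at 0.258 and 0.310 CPM in the axon. Stau1, the other mammalian Staufen, was thus called in the direction opposite to Stau2. Tp53inp2, known as an abundant axonal mRNA of sympathetic neurons, stood at 460 and 529 CPM in the soma against 25800 and 19900 CPM in the axon, and Trak2, an adaptor that links mitochondria to motors, at 272 and 287 CPM against 12400 and 7310 CPM. Both rose and were chosen after their values were seen, as were the ribosomal RNAs Rn18s and Rn28s. The summed share of these rRNAs was 0.216% and 0.310% of somatic counts and 2.39% and 3.10% of axonal counts.

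The largest rises under the naming rule joined genes of high and of very low somatic level. Rims3, of the RIM family of presynaptic proteins, stood at 119 and 117 CPM in the soma and at 12000 and 11100 CPM in the axon, a log2 change of 8.17. Thsd1 stood at 4.75 and 2.44 CPM against 1340 and 924 CPM. Cnr2, the cannabinoid receptor known mainly from immune cells, stood at 12.2 and 10.1 CPM against 710 and 1230 CPM. These 3 were abundant in both axonal libraries. Slc6a12, a betaine and GABA transporter, stood at 0.188 and 0.0387 CPM in the soma and 96.8 and 39.8 CPM in the axon. Ins2, an insulin gene, stood at 0.753 and 0.310 CPM against 83.1 and 76.0 CPM. Hjv, the iron regulator hemojuvelin, stood at 0.188 and 0.349 CPM against 21.0 and 24.2 CPM. Genes of myeloid cells were also among the 12: the chemokine Ccl3, at 1.08 and 0.232 CPM in the soma and 34.5 and 102 CPM in the axon, and the proton pump subunit Atp6v0d2, at 0.612 and 0.232 CPM against 102 and 14.3 CPM. C20h21orf58 stood at 1.08 and 1.01 CPM in the soma and 42.3 and 120 CPM in the axon.

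For 3 of the 12 rises the read assignment is uncertain because of close relatives or copies. Stfa2l1, of the stefin family of protease inhibitors, had 3 somatic counts in all and stood at 43.7 and 43.2 CPM in the axon, a ratio of 681 with a 95% counting interval of 233 to 3310. Rn7sl1, the RNA of the signal recognition particle, stood at 6.02 and 4.22 CPM against 1040 and 1590 CPM. Rasl2-9, a Ran-like gene, stood at 0.235 and 0.194 CPM against 21.2 and 19.7 CPM.

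**Figure D3:**
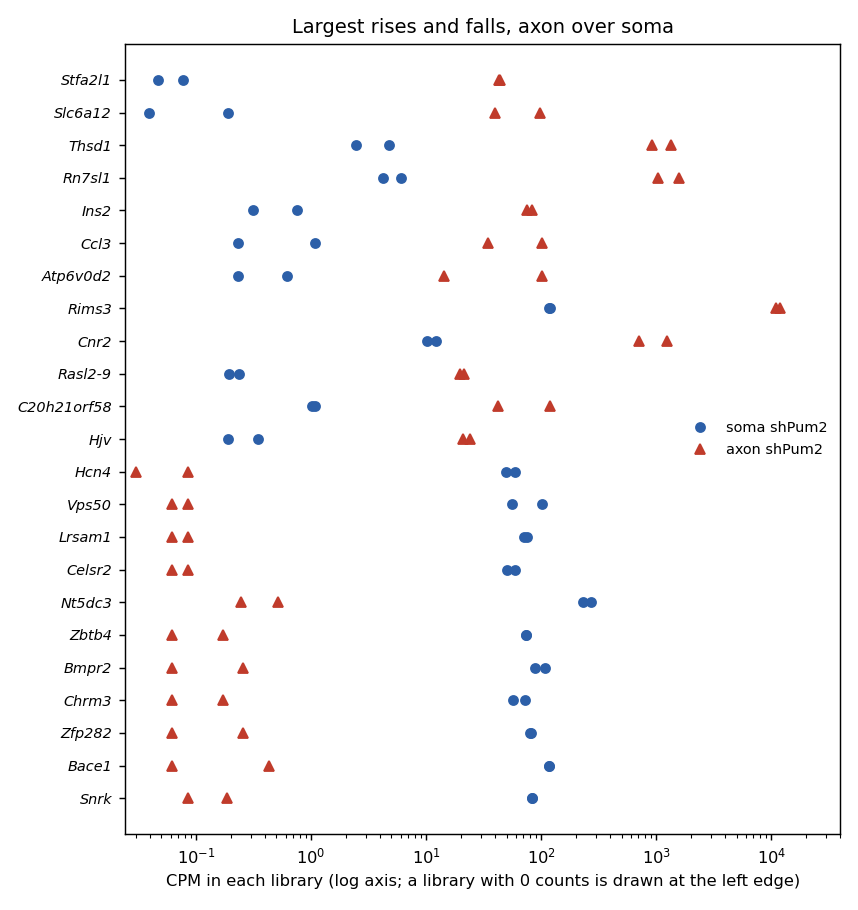
CPM on a log axis of the 12 largest rises and of the largest falls under the naming rule that are reported, with circles for the 2 somatic and triangles for the 2 axonal shPum2 libraries, and a count of 0 drawn at the left edge. The axonal triangles of every rise lie right of the somatic circles, and those of every fall lie left of them at under 1 CPM.

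Genes of the cytoskeleton were read by filament. Of 31 genes for actin, thymosins and actin regulators, 8 rose and none fell, beside 5.85% and 12.2% of all genes. The median log2 change was 0.80. Tmsb4x went from 2630 and 2900 CPM to 25200 and 33400 CPM, and Evl, an actin elongation factor of the Ena/VASP family, from 294 and 363 CPM to 1270 and 1780 CPM. Actb, beta-actin, rose from 3350 and 3190 CPM to 5730 and 4260 CPM (log2 change 2.13, adjusted p = 0.0494, edgeR quasi-likelihood, Benjamini-Hochberg), while gamma-actin, Actg1, stood at 5760 and 6320 CPM in the soma against 2420 and 1080 CPM in the axon and was not called. The 2 actins thus lay on opposite sides in CPM, a contrast that was not tested. The fitted log2 change of Actg1 was -0.35 (SE 0.41), which is above the median of -0.60 for all genes.

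Of 35 genes for tubulins, neurofilaments and microtubule regulators, 1 rose and 5 fell, with a median of -0.90 against -0.60 for all genes. Over all genes 5.85% rose and 12.2% fell, so the count that fell was near the share of all genes. Tuba1c, an alpha-tubulin, rose from 27 and 16 CPM to 120 and 174 CPM. Dpysl2, the microtubule regulator also called CRMP2, fell from 1740 and 1900 CPM to 65.6 and 47.5 CPM, and its relative Dpysl3 from 1850 and 1890 CPM to 57.9 and 42.7 CPM. Map1a, Map1b and Mapt, all microtubule-associated proteins, were the others that fell. Nefm, the medium neurofilament, stood at 8760 and 10100 CPM in the soma and 23700 and 14300 CPM in the axon, and was not called (adjusted p = 0.0519, edgeR quasi-likelihood, Benjamini-Hochberg).

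Of 32 genes for kinesins, dynein and dynactin 8 rose and 3 fell, beside 5.85% and 12.2% of all genes. The count that fell was thus not above the share of all genes. The light dynein subunits Dynlt1, at 277 and 308 CPM in the soma against 1530 and 2410 CPM in the axon, and Dynlrb1, at 169 and 206 CPM against 1150 and 1750 CPM, rose. So did Mapk8ip1, a kinesin cargo adaptor, at 811 and 903 CPM against 1770 and 1800 CPM, and Dynll1, Dctn3, Dctn6, Kif5b and Kif5c. The heavy chain of cytoplasmic dynein, Dync1h1, fell with Kif2a and Kif26b, the last from 63.9 and 60.4 CPM to 0.344 and 0.186 CPM. The list's median was -0.87.

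Of 39 translation initiation and elongation factors 2 rose and 1 fell, with a median of 0.12, where 5.85% of all genes rose and 12.2% fell, so that the count that rose was near the share of all genes. Tpt1, a growth-related protein whose mRNA also starts with a pyrimidine tract, rose from 575 and 551 CPM to 1200 and 1860 CPM, and Eif3i, an initiation factor subunit, from 123 and 119 CPM to 183 and 197 CPM. Eef1a2, the neuronal elongation factor, fell from 201 and 238 CPM to 4.29 and 0.558 CPM. Its relative Eef1a1 stood at 4090 and 4060 CPM in the soma against 879 and 1380 CPM in the axon and was not called, with a log2 difference of -0.22 that turned positive under DESeq2 size factors.

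Counts in the next 4 lists stood near the shares of all genes (5.85% higher and 12.2% lower) or, for genes lower in the axon, below them. Proteasome subunits rose in 3 of 30 genes, with a median of 0.93: Psma6 from 117 and 125 CPM to 239 and 295 CPM, Psma7 from 296 and 324 CPM to 536 and 503 CPM, and Psmb6 from 90.9 and 93.1 CPM to 219 and 277 CPM. In glycolysis 1 of 16 rose, Tpi1, from 368 and 363 CPM to 606 and 534 CPM. Gapdh stood at 2000 and 2310 CPM against 2590 and 4190 CPM (adjusted p = 0.0848, edgeR quasi-likelihood, Benjamini-Hochberg). Among 30 chaperones 3 rose: Ppia, a prolyl isomerase, from 1260 and 1380 CPM to 3460 and 4980 CPM, the small mitochondrial chaperonin Hspe1 from 118 and 114 CPM to 415 and 652 CPM, and the prefoldin subunit Pfdn1 from 82.0 and 83.7 CPM to 376 and 663 CPM. The large chaperone Hsp90ab1 stood at 2870 and 3150 CPM in the soma against 540 and 341 CPM in the axon and was not called. In the splicing list 2 of 29 rose and 2 fell. The small core proteins Snrpe, at 49.1 and 43.1 CPM against 263 and 446 CPM, and Snrpg, at 33.4 and 29.1 CPM against 140 and 199 CPM, rose, and the large matrix protein Srrm2 fell from 549 and 485 CPM to 28.6 and 16.7 CPM. With total counts as the scaling, the medians of the actin (-0.71), proteasome (-0.58), translation factor (-1.37) and glycolysis (-1.05) lists lay below 0, so their sign in the axon depends on the scaling, whereas those of the cytosolic ribosomal proteins (1.82), complex I (2.52), complexes II to V (2.43), mitochondrial ribosomal proteins (0.70) and ferritin and antioxidant genes (1.08) stayed above it.

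The largest falls reported under the naming rule were genes with under 1 CPM in each axonal library. Hcn4, a pacemaker channel, stood at 49.3 and 59.5 CPM in the soma and had 1 axonal count, a ratio of 1520 with a 95% counting interval of 273 to 60200. Celsr2, a cadherin of planar polarity, stood at 59.2 and 50.8 CPM against 1 count in each axonal library, a ratio of 758 (interval 210 to 6270). Lrsam1, a ubiquitin ligase mutated in an inherited neuropathy, stood at 71.6 and 75.3 CPM in the soma (ratio 1020, interval 283 to 8440), and Vps50, of an endosomal recycling complex, at 55.6 and 101 CPM (ratio 1120, interval 310 to 9240). These intervals are wide because a few axonal counts set them. Nt5dc3 had the highest somatic level of these genes, at 232 and 273 CPM against 0.515 and 0.248 CPM, 706-fold lower by summed counts. Bace1, the beta-secretase that cuts the amyloid precursor, fell from 117 and 118 CPM to 0.429 and 0.062 CPM. The receptors Bmpr2, for bone morphogenetic proteins, at 107 and 88.9 CPM in the soma against 0.258 and 0.062 CPM in the axon, and Chrm3, a muscarinic receptor, with 3 axonal counts (ratio 606, interval 207 to 2940), also fell. So did the kinase Snrk and the zinc finger genes Zbtb4, with 3 axonal counts (ratio 687, interval 235 to 3330), and Zfp282.

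The lists of neuronal membrane and synapse genes had medians below that of all genes. Their transcripts were also longer than the median of 2213 bases over all genes. Median lengths were 3961 bases for ion channels, 3336 for transmitter receptors, 2767 for vesicle genes and 4625 for guidance genes. Over all genes the median change was -0.72 from 2000 to 3000 bases and -1.61 from 3000 to 5000 bases. The part of length in the list medians was not tested. Of 37 voltage-gated ion channel genes 11 fell and none rose, beside 12.2% of all genes that fell, and the median was -3.69 against -0.60. Of the 11, 1 had no axonal count, so its direction was fixed by the filter. Cacna1h, a T-type calcium channel, fell from 201 and 196 CPM to 0.859 and 0.868 CPM, the auxiliary subunit Cacna2d2 from 147 and 119 CPM to 0.515 and 0.248 CPM, and Cacnb1 from 106 and 122 CPM to 0.515 and 0.186 CPM. Scn10a, the sodium channel of nociceptors, stood at 981 and 946 CPM in the soma and at 29.3 and 1.86 CPM in the axon (adjusted p = 0.0846, edgeR quasi-likelihood, Benjamini-Hochberg). Axonal replicates of Scn10a differed by much more than the somatic ones. Cacnb3, another calcium channel subunit, stood apart with 515 and 585 CPM in the soma against 323 and 206 CPM in the axon, a log2 difference of 0.44 that was -1.06 with total counts and was not called.

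Among 32 transmitter receptors and postsynaptic scaffolds 11 fell and none rose, beside 12.2% and 5.85% of all genes. Of the 11, 3 had no axonal count, so their direction was fixed by the filter. The list's median was -3.84, or -3.17 with the 5 members that had no axonal count set at their bound. Grin1, the obligate NMDA receptor subunit, fell from 138 and 153 CPM to 0.859 and 0.310 CPM, and Nlgn2, a postsynaptic adhesion protein, from 183 and 181 CPM to 1.12 and 0.496 CPM. Gabbr1, a subunit of the metabotropic GABA receptor, fell from 1150 and 1310 CPM to 35.6 and 16.1 CPM and so kept a measurable axonal level. The scaffold Dlg4 fell from 277 and 327 CPM to 4.21 and 1.24 CPM.

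In the synaptic vesicle and release list 6 of 38 fell, a share near the 12.2% of all genes, and none rose, with a median of -2.14. Unc13a, which primes vesicles, fell from 214 and 232 CPM to 0.773 and 0.496 CPM, the presynaptic adhesion protein Nrxn2 from 778 and 829 CPM to 6.27 and 3.10 CPM, and the fission GTPase Dnm1 from 155 and 165 CPM to 0.945 and 0.434 CPM. Vamp2, the vesicle SNARE, stood at 727 and 859 CPM in the soma and 506 and 731 CPM in the axon and was not called. Among 35 axon guidance and adhesion genes 7 fell and 1, the integrin Itga7, rose, beside 12.2% and 5.85% of all genes. The list's median was -3.24. Of the 7, 1 had no axonal count, so its direction was fixed by the filter. Alcam, an adhesion molecule, fell from 689 and 632 CPM to 69.1 and 35.2 CPM, and the semaphorin co-receptor Plxna3 from 163 and 170 CPM to 1.55 and 1.36 CPM. Itgb1, the common beta integrin, stood at 857 and 663 CPM against 308 and 112 CPM and was not called.

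Of 26 tested receptors and channels of sensory neurons, 4 fell and 1 rose, near the 12.2% and 5.85% of all genes, with a median of -1.97. Of the 4, 2 had no axonal count, so their direction was fixed by the filter. The neuropeptide galanin, Gal, rose from 0.894 and 1.24 CPM to 21.6 and 16.1 CPM, whereas Trpv1, the capsaicin receptor, fell from 15.5 and 16.6 CPM to 0.172 and 0.062 CPM, with 3 axonal counts in all. The growth factor receptors Ret, at 912 and 899 CPM in the soma against 128 and 1.12 CPM in the axon, and Ngfr, at 1290 and 1580 CPM against 255 and 17.5 CPM, differed widely between the axonal replicates and were not called.

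Of 37 mRNAs known from earlier work as axonal, 7 rose (Actb, Arpc2, Atp5mc1, Cox4i1, Hmgb1, Pebp1 and Tmsb4x) and 3 fell (Creb1, Map1b and Sox11). Over all genes 5.85% rose and 12.2% fell. The list's median was -0.15, or -1.55 with total counts. Hmgb1, a chromatin protein, was called although its CPM overlapped, with 246 and 224 in the soma and 362 and 225 in the axon. Atp5mc1, a subunit of the ATP synthase, rose from 158 and 182 CPM to 1140 and 1840 CPM. The transcription factor Creb1 fell from 8.09 and 5.34 CPM to 0.0859 and 0.062 CPM, which is 1 count in each axonal library. The neuronal intermediate filament Prph stood at 8380 and 9370 CPM in the soma against 1820 and 1880 CPM in the axon and was not called. Actb, Arpc2, Map1b, Tmsb4x and the respiratory chain genes of this list also belong to other lists above.

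**Figure D4:**
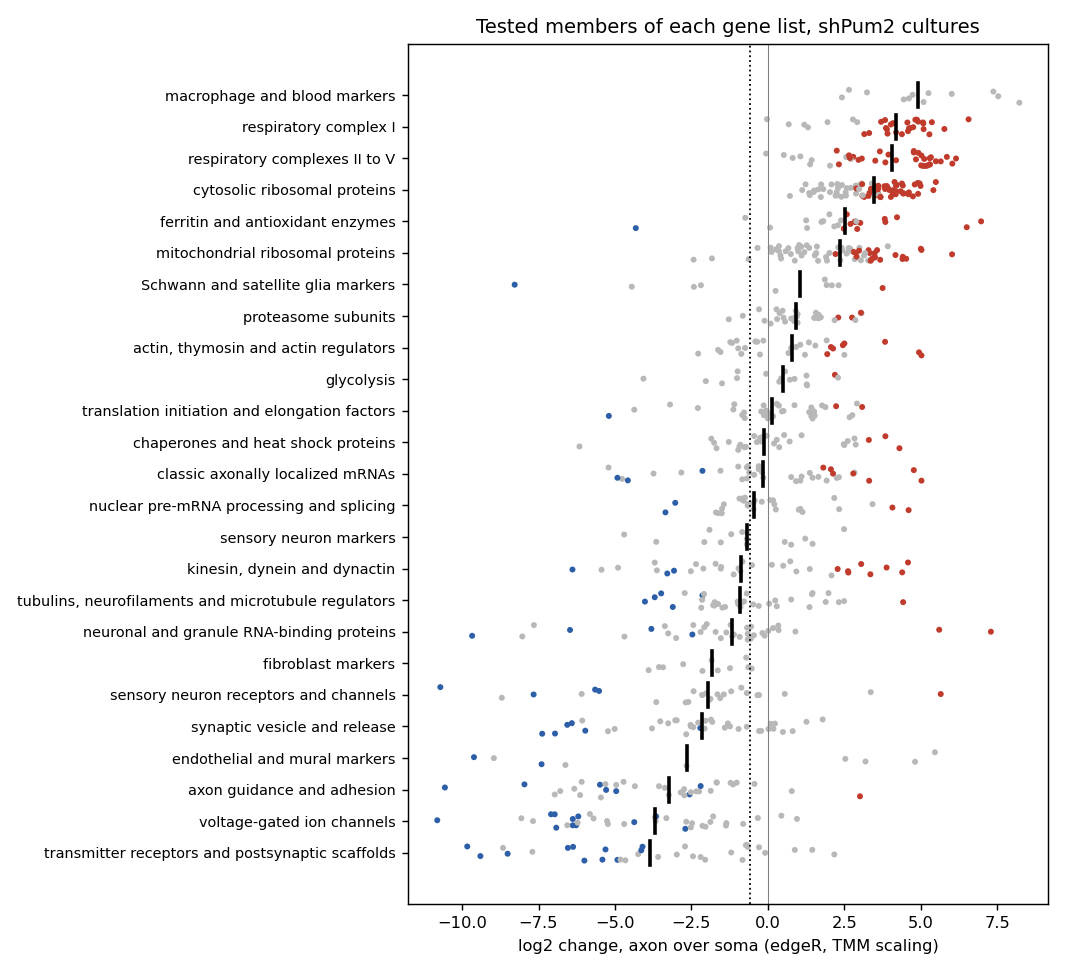
Log2 change of axon over soma in shPum2 cultures for every tested member of each gene list, red where higher in the axon, blue where lower and grey where the test was not passed, with a black bar at the list's median and a dotted line at the median of all genes (-0.60). Respiratory chain and ribosomal protein lists lie to the right (medians 4.19, 4.06 and 3.47), and transmitter receptors, ion channels and axon guidance genes to the left (medians -3.84, -3.69 and -3.24).

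Median transcript length was 564 bases in the list of cytosolic ribosomal proteins, 683 in complex I, 661 in complexes II to V and 1028 in mitochondrial ribosomal proteins, and the axonal excess followed length over all genes. Of 172 genes with transcripts of at most 500 bases 48.3% rose, and their median log2 change was 3.80. From 500 to 1000 bases (977 genes) the median was 2.23, from 1000 to 2000 bases 0.15, from 2000 to 3000 bases -0.72 and from 3000 to 5000 bases -1.61. From 5000 to 10000 bases it was -2.55, and for the 84 genes above 10000 bases -2.98, with 29.8% of them lower. The medians therefore fell with each step in length. Outside these 4 lists the 132 genes up to 500 bases had a median of 3.02 and the 867 genes of 500 to 1000 bases one of 1.96. Between 500 and 1000 bases the lists lay above the bin, with medians of 3.09 for 47 cytosolic ribosomal protein genes, 3.14 for 31 mitochondrial ribosomal protein genes, 4.57 for 20 complex I genes and 4.06 for 12 genes of complexes II to V. The ratio of deposited TPM in place of counts gave medians from 0.93 in the shortest bin to -3.08 for 5000 to 10000 bases and -2.83 above. Across genes, log2 length and log2 change correlated at r = -0.306, a description over the same 4 libraries. Whether this belongs to the axon or to the library kit cannot be told apart.

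**Figure D5:**
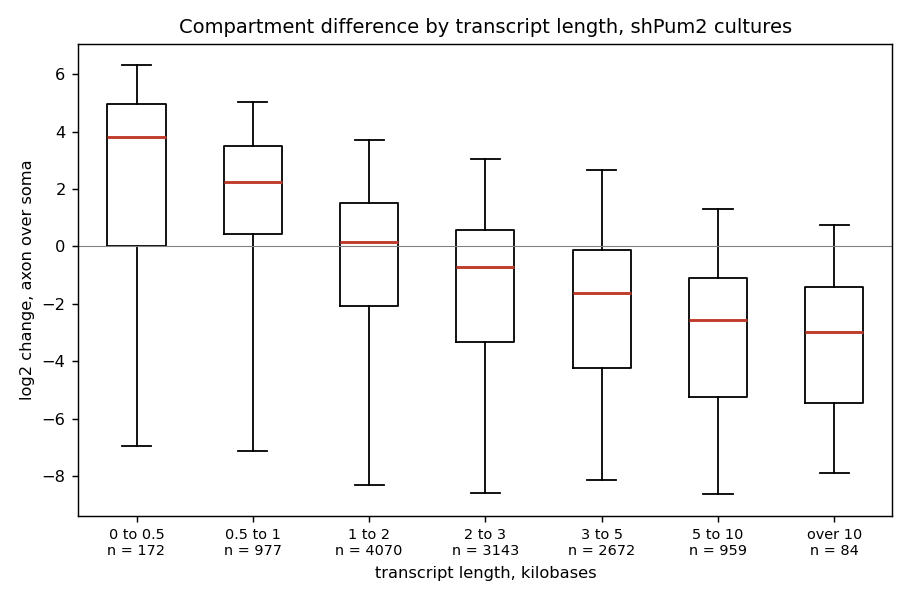
Log2 change of axon over soma in shPum2 cultures by transcript length in bases, with boxes for the quartiles, whiskers from the 5th to the 95th percentile and a red line at the median. The median falls from 3.80 for transcripts of at most 500 bases to -2.98 above 10000 bases.

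The control cultures were read in the same way to see how far the axonal pattern depended on the hairpin. In shControl cultures 3953 of 11834 tested genes (33.4%) differed between axon and soma, 1312 higher and 2641 lower (11.1% and 22.3% of those tested). Over the 11735 genes tested in both kinds of culture, 2062 were called with shPum2 and 3896 with shControl. The overlap of 1413 genes called in the same direction made up 68.5% of the shPum2 calls and 36.3% of the shControl calls. Of the 2062 shPum2 calls, 1898 had the same sign with shControl. The share of equal signs over all genes is not at hand to set beside this count. Log2 changes of the 2 kinds of culture correlated at r = 0.612 over all genes tested in both. Genes that pass the filter through their somatic libraries alone also lean to a lower sign in either fit. List medians with shControl were 3.48 for cytosolic ribosomal proteins, 4.23 for complex I, 3.97 for complexes II to V, 2.63 for ferritin and antioxidant genes, -4.99 for ion channels and -4.05 for axon guidance genes. Macrophage and blood markers were high in the shControl axons as well, at 2558 and 2977 CPM, and 7 of them rose there. Of the largest rises named above, Atp6v0d2 stood at 0.0856 and 0.148 CPM in the shControl axon and Stfa2l1 at 3.42 and 0.0739 CPM. Neither was tested in the shControl fit, and the other largest rises were called higher there. The difference between cultures did not pass for either (adjusted p = 0.329 and 0.632 in that order, edgeR quasi-likelihood, Benjamini-Hochberg).

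The difference between the axon over soma ratios of shPum2 and shControl cultures was tested for 12337 genes. None (0%) passed in the edgeR quasi-likelihood test, with 964 genes at an unadjusted p below 0.05, where DESeq2 called 614, 358 with a higher ratio with shPum2 and 256 with a lower one. The smallest adjusted p was 0.329 (edgeR quasi-likelihood, Benjamini-Hochberg), and without replicate 1 of the shControl axon 713 genes passed. The 5 genes named for this comparison had the smallest p, and none passed (adjusted p = 0.329 for each, edgeR quasi-likelihood, Benjamini-Hochberg). Usf1, a transcription factor, had a log2 ratio of axon over soma of 0.46 with shPum2 and of -6.47 with shControl (difference 7.05, SE 0.94). Lrp11 had ratios of -1.32 and -6.69, the tubulin deglutamylase Agtpbp1 of -1.65 and -6.35, and the adhesion molecule L1cam of -2.56 and -5.98. In these 4 the fitted ratio was higher with shPum2. Trappc8, of a vesicle tethering complex, had ratios of -7.46 with shPum2 and -0.10 with shControl. The lower ratio of each gene rests on low axonal levels. Trappc8 stood at 0.172 and 0.186 CPM in the shPum2 axon, 5 counts in all. In the shControl axon Usf1 stood at 0.257 and 0.591 CPM and Lrp11 at 0.685 and 1.03 CPM. Agtpbp1 stood there at 1.28 and 1.85 CPM and L1cam at 4.36 and 4.73 CPM. Called in opposite directions in the 2 kinds of culture were 4 genes, named after their values were seen: Cdkn2b, a cell cycle inhibitor, Dnajc22, a membrane-bound chaperone partner, Fam210b, a mitochondrial protein, and S100a5, a calcium-binding protein. Their difference did not pass (adjusted p = 0.329, edgeR quasi-likelihood, Benjamini-Hochberg). In the shPum2 axon Cdkn2b, Dnajc22 and S100a5 had 0 counts and Fam210b had 2. Mean levels in the shPum2 soma were only 1.94, 1.41, 1.1 and 2.81 CPM in that order, so a reversal between cultures is not shown. Pum2 itself stood at 164 and 160 CPM in the shControl soma against 3.25 and 0.443 CPM in the shControl axon. Its somatic level was thus lower with shPum2 (38.2 and 36.5 CPM) without overlap, whereas its axonal levels with shPum2 (1.46 and 7.07 CPM) overlapped those with shControl, so a knockdown was visible in the somatic libraries alone.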

How the data were processed

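Per the file headers, the authors deposited for each library estimated counts per RefSeq transcript and TPM, a length-scaled share. The submitters' processing notes name kallisto, DESeq2 and the build Rnor_6.0, with no versions. The authors' deposited comparison tables, which compare hairpins within a compartment, were not used here.

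Of 18321 transcripts, 17367 (94.8%) were given gene names from RefSeq's GRCr8 table; the other 954, with 2.24% to 3.62% of the counts of the 4 shPum2 libraries, kept their identifiers. The rounded sums of estimated counts gave values for 17379 genes. The shPum2 libraries were fitted alone with edgeR 4.0.16 in R 4.3.3 (filterByExpr, TMM scaling, quasi-likelihood test), with Benjamini-Hochberg adjustment over all genes tested and a threshold of 0.05. The shControl libraries had a fit of their own, and the difference between cultures came from a fit of all 8. CPM are counts over the library total, and log2 changes are edgeR's fitted values. TPM were used for levels of different genes and, as log2(TPM + 1), for length. Where a group held 1 to 3 counts, the ratio has an exact 95% interval; medians with bounds use a floor of 3 counts per group. Intervals cover counting error alone.

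The comparison, its members and the gene lists were chosen with earlier results of these data known. The rule named Pum2, the 12 largest rises and falls among called genes that had a symbol, libraries without overlap and a mean log2 CPM not under 4, per list the 3 members of smallest p at most and 2 further with the highest CPM, and 5 genes from the difference between cultures. Of the falls, 1 gene is not reported here. Names given in full for the called members of a list follow its count. Alternatives were other size factors, no filter, DESeq2, limma 3.58.1 voom with and without weights, a replicate block, a 2-fold limit, a fit of all 8 libraries and each library left out. Promoter sequences are RefSeq's (GRCr8).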

Additional observations from a re-analysis of the deposited data

How the results depend on the processing

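Of the 2185 calls between axon and soma in shPum2 cultures, counts changed by over 1.5 times with no expression filter (0 calls, 4769 genes at an unadjusted p below 0.05), with a 2-fold limit (0, 4079 genes), with limma voom (472) and with each library left out (3 to 9630). They came to 2034 with DESeq2 size factors, 2740 with total counts (392 higher, 2348 lower), 3158 with DESeq2, 3086 with voom weights per compartment and 3046 in a fit of all 8 libraries. With the replicate number as a replicate block no gene passed (0 calls, 1887 genes at an unadjusted p below 0.05). The labels do not say that the numbers mark shared cultures, so the numbers were not used as pairs. Deviations of axonal and somatic replicates correlated at r = 0.0935 over genes. This value cannot settle whether the numbers mark pairs, because the axonal replicates differed widely (r = 0.725). Summed fibroblast, macrophage and Schwann markers were higher in replicate 1 of both compartments. For summed sensory neuron markers and summed endothelial and mural markers the higher replicate differed between the compartments. If the numbers do mark pairs, the fit with the block applies, in which no gene passed. In shControl cultures the replicate block left 719 of 3953 calls, and leaving out each library gave 415 to 10750. The difference between cultures had 614 calls with DESeq2, 0 to 713 with each library left out and 0 with the block. The cause of these changes was not tested.

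Signs of named genes turned as follows. Total counts gave -1.20 for Psmd2, -0.20 for Ldha, -0.34 for Aldoa, -0.27 for Eno1, -1.06 for Cacnb3, -0.36 for Vamp2, -1.15 for Ncl and -0.16 for Stmn2. DESeq2 size factors and DESeq2 gave 0.31 for Eef1a1 and 0.04 for Hspa8, and with each library left out Eef1a1 ran from -1.06 to 0.47 and Hspa8 from -0.96 to 0.08 (both highest without axonal replicate 1). With each library left out Col3a1 ran from -3.63 to 0.07 (without somatic replicate 1), Lpl from -1.98 (without axonal replicate 1) to 8.41 and Cxcl1 from -3.48 (without axonal replicate 2) to 7.84. None of these genes was called in the test the report uses. In counts made per list after seeing the data, 62 cytosolic ribosomal protein genes rose with voom weights, 64 with DESeq2 and 78 without axonal replicate 1, ion channels fell in 18, 24 and 34, and macrophage and blood markers rose in 2, 8 and 3.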

Other observations

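The 3 genes Lpl, Mmp12 and Cxcl1, chosen after their values were seen because the axonal replicates differed, had the following levels. Lpl, the lipoprotein lipase, stood at 10.3 and 2.01 CPM in the somatic shPum2 libraries and at 632 and 0.372 CPM in the axonal ones. Mmp12, the macrophage elastase, stood at 1.55 and 0.426 CPM in the soma and at 0.859 and 2460 CPM in the axon. The chemokine Cxcl1 stood at 7.29 and 1.51 CPM against 0.172 and 203 CPM. Lpl was thus high in axonal replicate 1 alone, and Mmp12 and Cxcl1 in replicate 2 alone. None of the 3 was called between axon and soma (adjusted p = 0.236, 0.146 and 0.268 in that order, edgeR quasi-likelihood, Benjamini-Hochberg).

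Erythroid and collagen transcripts also differed between replicates. Hba-a1, an alpha-globin, stood at 6.35 and 0.581 CPM in the soma and 786 and 53.1 CPM in the axon, and the beta-globin Hbb at 1.83 and 0.116 CPM against 80.0 and 35.5 CPM. Col1a1, the collagen of fibroblasts, stood at 2000 and 427 CPM in the soma and 136 and 9.17 CPM in the axon. In each of these genes replicate 1 was the higher library of both compartments. Noncoding genes moved in both directions: of 110 tested, 17 rose in the axon and 23 fell, beside 5.85% and 12.2% of all genes, with a median log2 change of 0.17.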
